A study of Mus musculus with 52 samples.

Results

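The effect of mutant SOD1 on ribosome-bound RNA was compared between motor neurons and astrocytes of mouse spinal cord at disease onset. The comparison used 18 of the 52 libraries of the series: 4 control and 4 G37R libraries of motor neurons, and 6 control and 4 G37R libraries of astrocytes. For each gene the G37R minus control difference was taken within each cell type, and the astrocyte effect was then subtracted from the motor neuron effect. Of 23697 genes listed, 11380 had a mean level of at least 1 in both cell types and were compared. The mean was taken over control and G37R libraries together, so a gene low in controls could enter through its G37R libraries.

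The G37R mice carry human SOD1 with the G37R mutation, a cause of inherited amyotrophic lateral sclerosis, and the controls are labelled non-transgenic (Non-Tg). All 18 libraries are labelled male and onset, and the labels give no age for them. Control and G37R mice alike carried a bacTRAP reporter, which places an EGFP tag on the ribosomal protein RPL10A in a chosen cell type, so that ribosomes of that type and the RNA on them can be pulled down with an antibody to GFP. The driver of the reporter in each line is not given in the sources used here, and the labels do not state that libraries come from different animals. The p-values therefore reflect library-to-library spread, which may be technical. The series title describes damage that starts in motor neurons and reaches glia, and the present comparison addresses which transcripts change in both cell types, in 1 of them, or in opposite directions.

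Motor neurons are the cholinergic cells whose loss paralyses patients with amyotrophic lateral sclerosis, and astrocytes are the glia that supply them with metabolites and clear glutamate. Injured neurons are known to switch on the transcription factor ATF3, and cells short of amino acids or loaded with unfolded protein make ATF4, which drives genes of serine, one-carbon and aminoacyl-tRNA metabolism. Astrocytes in diseased tissue become reactive, with more intermediate filament, protease inhibitor and S100 protein transcripts.

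Levels are given in FPKM-equivalents, the deposited values divided by a factor that puts them on an FPKM-like scale, and effects are differences of log2(level + 1) with their SE. Adding 1 shrinks effects at levels near or below 1. Effect sizes are therefore not directly comparable between the cell types where a gene's levels are unlike, and part of a called difference can come from this. A gene was called when limma's Benjamini-Hochberg adjusted p over all genes tested was under 0.05. Levels of the 2 cell types come from tables that were scaled separately. In bulk pull-downs, fewer cells of a type and less RNA per cell cannot be told apart.

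The cell type labels were checked against defining markers. The summed level of 6 motor neuron markers, among them Chat and Slc18a3 of acetylcholine synthesis and storage, was 1938 to 2543 in the 8 motor neuron libraries and 25.1 to 43.0 in the 10 astrocyte libraries. The summed level of 6 astrocyte markers, among them Gfap and Aldh1l1, was 5440 to 10326 in astrocytes. Transcripts of other cells were also present. Markers of oligodendrocytes, the myelin-forming glia, summed to 5387 to 9191 in the astrocyte libraries against 11905 to 14132 in 4 whole spinal cord control libraries of 8 months, so astrocyte libraries were not depleted of them to the same extent as motor neuron libraries, at 343 to 705.

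Those sums moved with genotype in motor neurons. Astrocyte markers summed to 115 to 256 in motor neuron G37R libraries and to 52.6 to 87.9 in controls, and oligodendrocyte markers to 417 to 705 against 343 to 390. Gfap, at 97.8 to 217 in G37R and 38.4 to 68.5 in controls, made up most of the astrocyte sum. Aldh1l1, Aqp4, Gja1, Slc1a2 and Slc1a3 had motor neuron effects of 0.32 to 1.025, none of them called. Microglia markers summed to 8.74 to 21.0 against 2.77 to 4.14, and markers of inhibitory interneurons to 58.2 to 108 against 42.9 to 54.7. G37R libraries 3 and 4 were the highest of the motor neuron libraries in all 4 sums. In astrocytes the microglia sum was 44.4 to 46.7 in G37R and 14.6 to 23.7 in controls, with no overlap, while the oligodendrocyte sums overlapped. Endothelial markers summed to at most 0.536 in all 18 libraries, against 45.3 to 60.0 in whole spinal cord. The part of these transcripts in each result below was not tested, except that results were recomputed without motor neuron G37R libraries 3 and 4. That leave-out also leaves fewer G37R libraries, which by itself makes a call harder to reach.

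**Figure D1:**
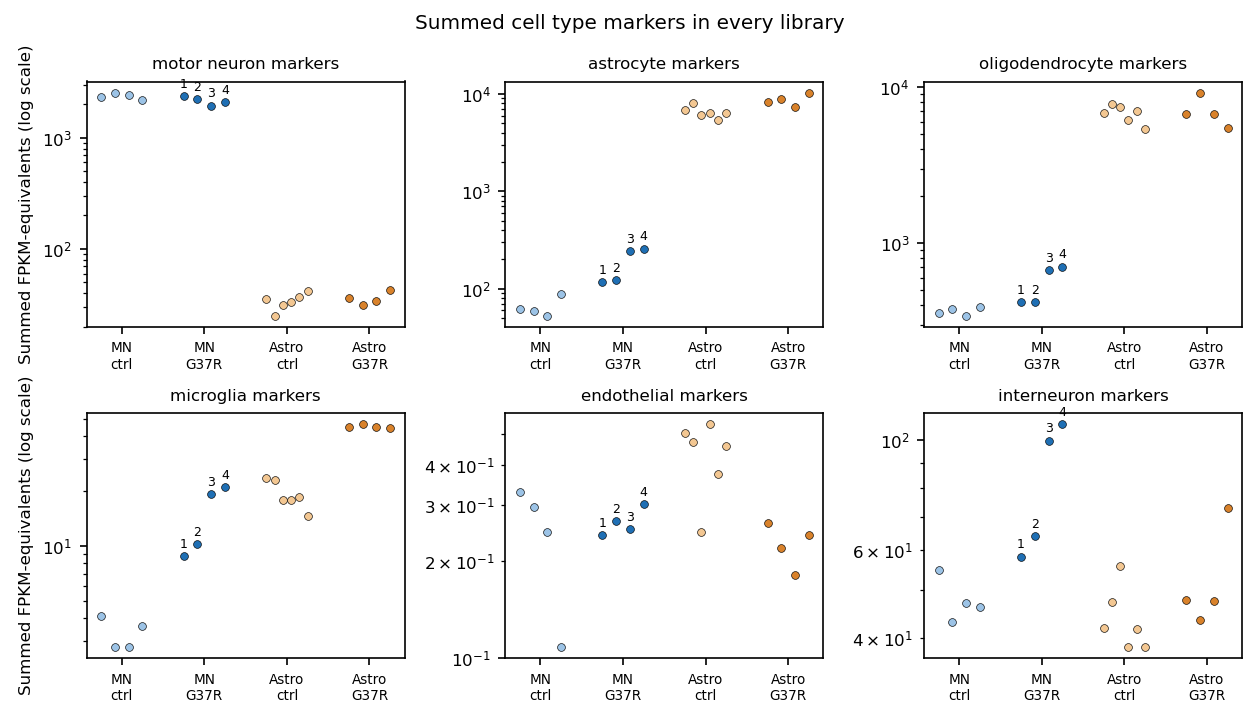
Summed level of defining markers of 6 cell types (vertical axes, FPKM-equivalents, log scale) in each motor neuron (MN) and astrocyte (Astro) library, 1 point per library, with motor neuron G37R libraries numbered. Microglia sums of G37R lie above those of controls in both cell types, at 8.74 to 21.0 against 2.77 to 4.14 in motor neurons and 44.4 to 46.7 against 14.6 to 23.7 in astrocytes.

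Most genes that passed the test in 1 cell type did not pass it in the other. In motor neurons 771 genes rose and 692 fell, 6.78% and 6.08% of the genes tested in both (12.9% in all), and in astrocytes 142 rose and 71 fell, 1.25% and 0.624% (1.87% in all). On the same genes, 111 rose and 148 fell in motor neurons when G37R libraries 3 and 4 were left out. Only 56 genes were called in both, 3.83% of the motor neuron calls and 26.3% of the astrocyte calls. Of these, 51 (0.448%) moved the same way and 5 (0.0439%) in opposite directions. The 51 were 41 rises (0.36%) and 10 falls (0.0879%). The median SE was 0.07 for a motor neuron effect and 0.10 for an astrocyte effect, so a change of a given size was harder to call in astrocytes. The excess of motor neuron calls depended on this separate spread. When both effects came from 1 fit of all groups with a common spread per gene, more genes were called in astrocytes than in motor neurons. Those counts are given with the dependence on processing below. A call in 1 cell type is therefore not by itself a difference between them.

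The difference itself was called for 322 genes, 2.83% of those tested: 215 (1.89%) were more positive in motor neurons and 107 (0.94%) in astrocytes. For 204 of the 322 the motor neuron effect was above 0 and the astrocyte effect below 0, for 77 it was the reverse, and for 41 both had the same sign, 34 of them positive. With the effect also called in that cell type alone, 148 genes (1.3%) made up a motor neuron-specific group, 109 of which rose and 39 fell. The corresponding astrocyte-specific group held 78 genes (0.685%), of which 43 rose and 35 fell. A further 1259 genes were called in motor neurons alone, and 79 in astrocytes alone, without a called difference, and for 86 the difference was called and neither effect was.

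Genes that rose in astrocytes usually had a positive effect in motor neurons as well, 115 of 142 (81%), where 54.4% of all genes tested were positive in motor neurons. In the other direction, 457 of the 771 motor neuron rises (59.3%) were positive in astrocytes, where 50.2% of all genes were. Among falls, 32 of 71 in astrocytes (45.1%) were negative in motor neurons, where 45.6% of all genes were, and 364 of 692 in motor neurons (52.6%) were negative in astrocytes, where 49.8% were. These shares were not tested. Across the 11380 genes the 2 effects had a Pearson r of 0.15 and a Spearman rank correlation of 0.05, as a description of genes that share libraries.

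**Figure D2:**
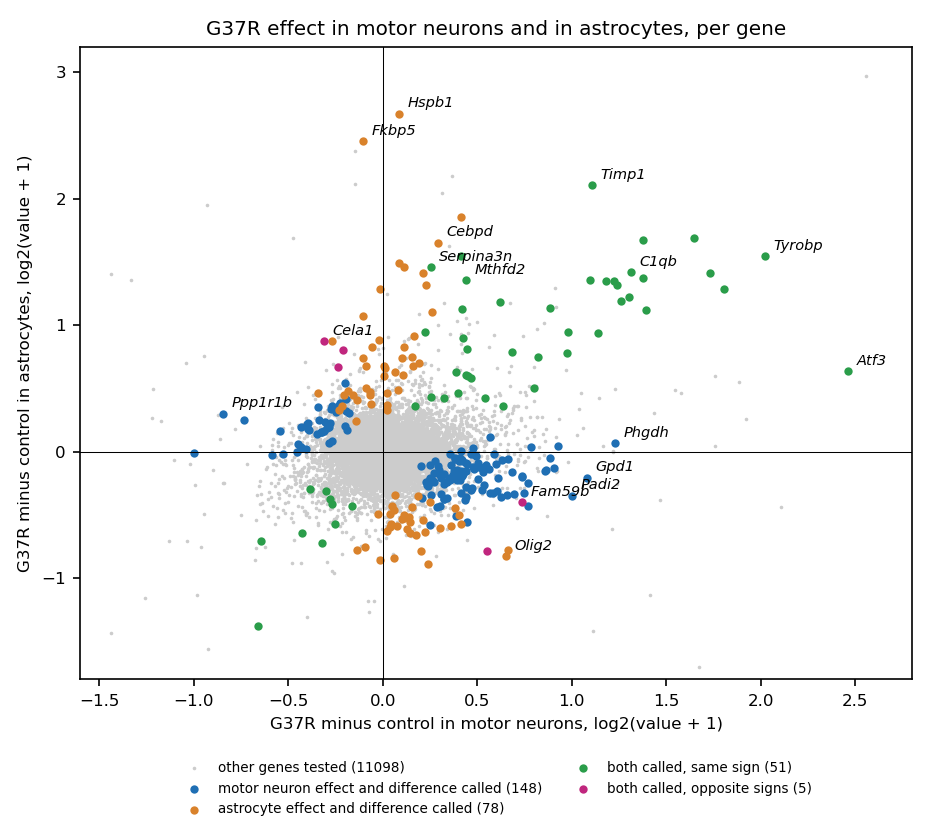
G37R effect in motor neurons (horizontal axis) against that in astrocytes (vertical axis), both in log2(level + 1), with 1 point per gene tested in both and colours for genes called in both cell types or in 1 with the difference called. The 33 genes outside the plotted range belong to none of the coloured groups, and Atf3 (2.46 and 0.64) and Hspb1 (0.09 and 2.67) stand at the ends of the motor neuron and astrocyte directions among coloured genes.

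The shared rises included transcripts of microglia and of the complement system. Tyrobp, the signalling adaptor of microglial TREM2, was at 2.06, 1.19, 1.05 and 1.62 in the motor neuron controls and at 5.10, 6.75, 12.7 and 14.2 in G37R. Its astrocyte controls ranged from 7.33 to 12.9 with a median of 9.94, and G37R was at 33.0, 30.8, 30.6 and 29.8. Neither cell type had overlapping groups, and the effects of 2.02 ± 0.32 and 1.55 ± 0.13 had adjusted p of 0.0167 and 0.000169. The difference between them, 0.48 ± 0.31, was not called (adjusted p = 0.39).

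The same held for other genes of that kind. C1qa, a chain of the C1q complex that starts the classical complement cascade, rose by 1.73 ± 0.30 in motor neurons and 1.41 ± 0.14 in astrocytes, and its levels were 5.04 to 12.8 against 1.34 to 2.37 and 18.7 to 27.3 against 6.96 to 10.7. C1qb and C1qc rose by 1.31 and 1.38 in motor neurons and by 1.42 and 1.37 in astrocytes. Lyz2, a lysozyme of macrophages and microglia, rose by 1.64 ± 0.35 and 1.69 ± 0.14, and Ctss, a lysosomal protease of those cells, by 1.39 ± 0.35 and 1.12 ± 0.15. Of 22 listed genes of resident microglia in the data, 7 reached the minimum mean in both cell types. Among these 7, 5 rose in motor neurons and 6 in astrocytes, and 5 were shared. Over all genes tested 6.78% and 1.25% rose and 0.448% were shared. Fcer1g, 1 of the 7, reached the minimum in motor neurons through G37R, with means of 0.68 in controls and 2.93 in G37R. The 7 had median effects of 0.97 and 1.14, where all genes tested had medians of 0.02 and 0.00. Of 13 tested genes on the list of disease-associated microglia 7 and 5 rose, all 5 of the latter shared, and 4 rose in motor neurons without G37R libraries 3 and 4. Of 9 complement genes 6 rose and 2 fell in motor neurons and 4 rose in astrocytes. These rises went with the microglia marker sums given above. Tyrobp is itself 1 of the 6 markers summed and most of the sum in G37R libraries, so for Tyrobp this was given in advance. The part of microglial transcripts in these rises was not tested. The motor neuron effects were smaller but still called without motor neuron G37R libraries 3 and 4 for Tyrobp (1.49, adjusted p = 0.01) and C1qa (1.21, adjusted p = 0.00419). Without 1 of several motor neuron libraries, Tyrobp and C1qa lost their calls there, with adjusted p up to 0.0573 and 0.0633. In motor neurons, C1qb, C1qc, Lyz2, Ctss and Fcer1g, an antibody receptor subunit of the same cells, lost their calls when 1 of 4 to 6 of the 8 libraries was left out, with adjusted p of up to 0.118 for Ctss.

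Shared rises also held cytoskeletal and injury genes. Vim, which encodes the intermediate filament vimentin of reactive astrocytes, was at 7.32, 7.13, 6.91 and 8.32 in motor neuron controls and at 14.8, 13.5, 25.3 and 29.5 in G37R. In astrocytes it was far more abundant, at 141 to 202 in controls with a median of 149.98 and at 429.7, 321, 252 and 520.0 in G37R. The effects were 1.30 ± 0.25 and 1.22 ± 0.18 with no overlap of groups in either cell type, and the motor neuron call was lost without 1 of 4 libraries (adjusted p up to 0.0739). Lgals3, a galectin of activated phagocytes and reactive glia, rose by 1.37 ± 0.19 and 1.68 ± 0.19. Anxa3, a calcium-dependent membrane binder, rose by 1.18 ± 0.24 (adjusted p up to 0.0725 without 1 of 5 libraries) and 1.35 ± 0.26, and Tagln2, an actin-binding protein, by 1.24 ± 0.18 and 1.32 ± 0.21. Timp1, a secreted inhibitor of matrix metalloproteases, rose by 1.11 ± 0.17 and 2.11 ± 0.23, and the difference of -1.0005 ± 0.31 was not called (adjusted p = 0.0841). In motor neuron controls Anxa3 and Timp1 were below the minimum mean, at 0.81 and 0.64, and entered through G37R. Gap43, a growth cone protein of regrowing axons, rose by 0.54 ± 0.13 in motor neurons, where it was at 202 to 315 against 175 to 184, and by 0.42 ± 0.10 in astrocytes, where it was at 46.2 to 60.6 against 36.4 to 45.5. Its calls were lost when 1 of 6 motor neuron or 1 of 7 astrocyte libraries was left out (adjusted p up to 0.0877 and 0.139).

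Only 10 genes fell in both. Fam181a fell most among them by the smaller of the 2 effects: it was at 1.60, 1.76, 1.64 and 1.80 in motor neuron controls and at 0.768, 0.771, 0.768 and 0.527 in G37R. In astrocytes it was at 17.1 to 31.6 in controls (median 27.3) and at 12.4, 11.1, 6.37 and 7.51 in G37R. Its effects were -0.66 ± 0.08 and -1.38 ± 0.20 without overlap of groups, and both calls held whichever single library was left out. Group means went from 1.70 to 0.709 in motor neurons and from 25.8 to 9.34 in astrocytes. The added 1 shrinks the motor neuron effect more, so the 2 sizes are not directly comparable. Ccdc85c (-0.65 and -0.71), Dear1 (-0.43 and -0.64), Vgll4, a cofactor of TEAD transcription factors (-0.32 and -0.72), and Lsm12 (-0.30 and -0.31) also fell in both. The calls of these 4 genes were lost in at least 1 cell type without 1 of several libraries.

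In 5 shared genes the sizes differed. Atf3, the injury-induced transcription factor, was at 0.507, 2.02, 1.11 and 1.78 in motor neuron controls and at 9.83, 9.42, 13.9 and 13.8 in G37R. The astrocyte controls lay at 1.31 to 1.93 with a median of 1.73 and G37R at 2.84, 3.25, 2.87 and 3.93. Both rises were free of overlap, at 2.46 ± 0.24 and 0.64 ± 0.10, and the motor neuron rise was larger by 1.83 ± 0.23 (adjusted p = 0.00068). The difference was 1.59 (adjusted p = 0.0149) without motor neuron G37R libraries 3 and 4.

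The other 4 rose more in astrocytes. Serpina3n, a secreted protease inhibitor and marker of reactive astrocytes, was at 83.5, 86.0, 81.3 and 78.5 in motor neuron controls and at 95.7, 95.1, 89.5 and 114 in G37R, an effect of 0.25 ± 0.07 (adjusted p = 0.0429, and up to 0.105 without 1 of 5 libraries). In astrocytes it went from 20.9 to 38.7 in controls (median 29.7) to 79.8, 82.3, 53.5 and 129, an effect of 1.46 ± 0.21. The difference was -1.21 ± 0.26 (adjusted p = 0.0196, 0.0518 without motor neuron G37R library 3, and 0.0958 without libraries 3 and 4). Tagln, an actin-binding protein of contractile cells, rose by 0.41 (adjusted p up to 0.0548 without 1 of 2 libraries) and 1.54 (difference -1.13 ± 0.22, with an adjusted p of 0.0728 without libraries 3 and 4). Mthfd2, a mitochondrial enzyme of folate metabolism, rose by 0.44 ± 0.06 and 1.36 ± 0.19 (difference -0.92 ± 0.23), and Emd, which encodes the nuclear envelope protein emerin, by 0.22 ± 0.06 and 0.95 ± 0.13 (difference -0.73 ± 0.16). The differences of Mthfd2 and Emd were not called without libraries 3 and 4 either.

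**Figure D3:**
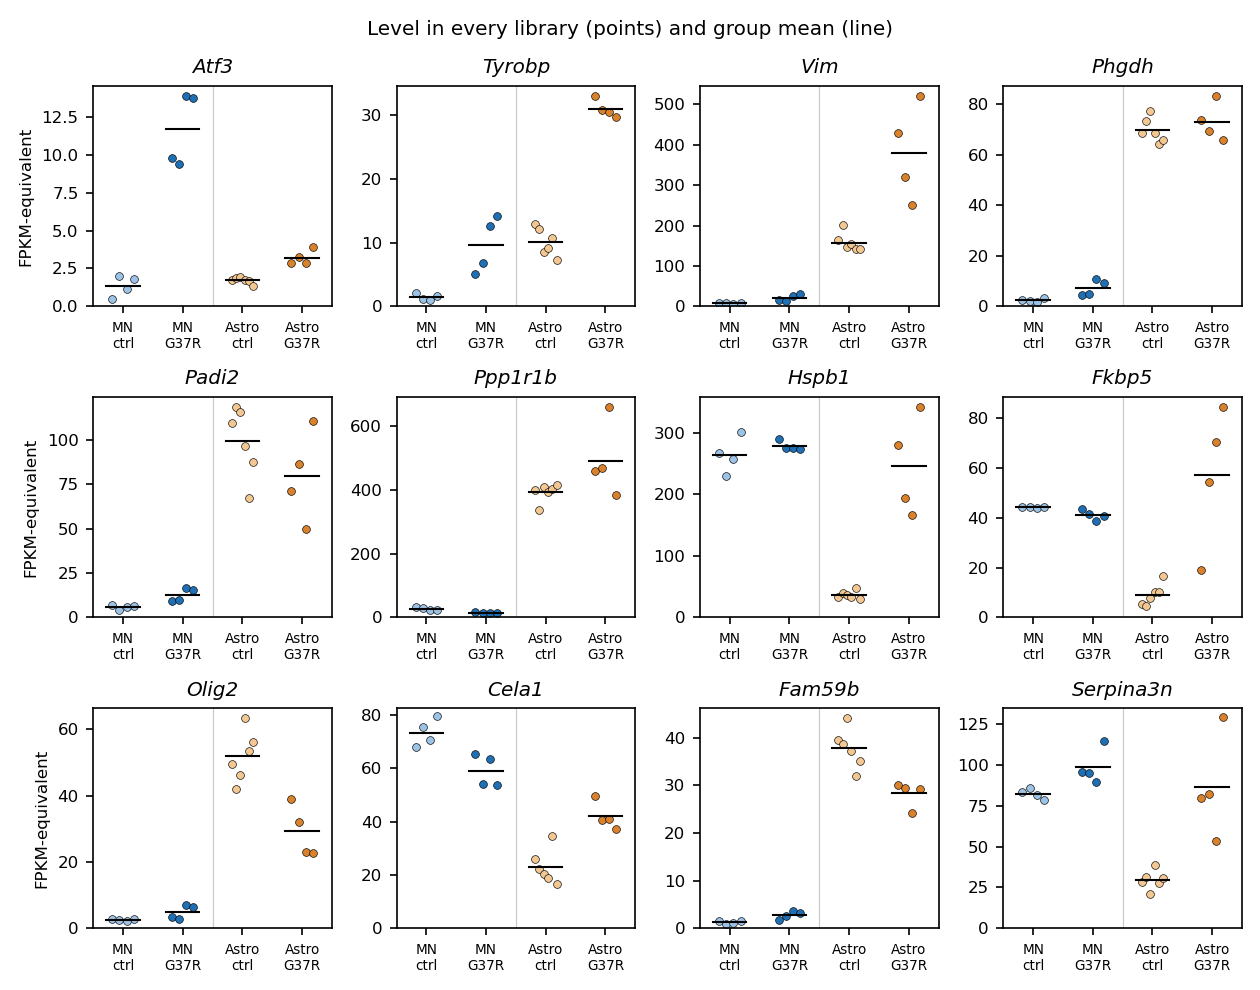
Level of 12 genes (vertical axes, FPKM-equivalents, from 0) in every library of the 4 groups, with 1 point per library and a line at the group mean. Atf3 lies at 9.42 to 13.9 in motor neuron G37R and 2.84 to 3.93 in astrocyte G37R, while Hspb1 lies at 166 to 343 in astrocyte G37R against 30.2 to 48.2 in its controls and does not separate the motor neuron groups.

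Genes of the ATF4 stress response mostly had effects above 0 in both cell types, 32 of 33 in motor neurons and 27 in astrocytes. Of all genes tested, 54.4% and 50.2% had such effects. Of 33 tested members of that list, 24 rose and none fell in motor neurons, while 5 rose and none fell in astrocytes. Over all genes tested, 6.78% rose and 6.08% fell in motor neurons, 1.25% rose and 0.624% fell in astrocytes, and the difference was called for 2.83%. The median effects were 0.44 and 0.14. For 8 members the difference was called with the larger effect in motor neurons, and for 2, Cebpb and Mthfd2, with the larger effect in astrocytes. Beside Atf3, the 8 were Phgdh and Psat1, 2 enzymes of serine synthesis, Shmt2, which passes the serine carbon to folate in mitochondria, Cth of cysteine synthesis, Wars, the tryptophanyl-tRNA synthetase, Atf4 itself and Vldlr, a lipoprotein receptor. Without motor neuron G37R libraries 3 and 4, 14 members rose in motor neurons, the median was 0.36, and the difference was called for 2.

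Phgdh, the first enzyme of serine synthesis, was at 2.59, 2.19, 1.77 and 3.11 in motor neuron controls and at 4.41, 4.88, 10.97 and 9.34 in G37R. Its astrocyte level was much higher and overlapped between groups, at 64.2 to 77.4 in controls (median 68.5) and 73.7, 69.5, 83.1 and 66.0 in G37R. The effects were 1.23 ± 0.29 (adjusted p = 0.0386) and 0.07 ± 0.08, and the difference 1.16 ± 0.26 (adjusted p = 0.0221, and up to 0.0595 without 1 of 3 libraries) became 0.67 (adjusted p = 0.0951) without motor neuron G37R libraries 3 and 4. Psat1, the next enzyme, went from 46.7 ± 1.53 to 91.7 ± 23.4 in motor neurons (SD, n = 4 each) and was 272 ± 20.8 and 279.7 ± 6.83 in astrocytes, with a difference of 0.88 ± 0.16 (adjusted p = 0.00984) that was 0.58 (adjusted p = 0.0288) without those libraries. Both enzymes are abundant in astrocytes, whose marker sum, mostly Gfap, was also highest in motor neuron G37R libraries 3 and 4.

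Shmt2 and Mthfd2, both of mitochondrial folate metabolism, rose in motor neurons, and Mthfd2 rose in astrocytes too. Shmt2 rose in motor neurons, from 5.17 ± 0.52 to 8.27 ± 0.95, an effect of 0.59 ± 0.09, and was at 13.8 ± 0.87 and 13.6 ± 0.87 in astrocytes, an effect of -0.02 ± 0.07 (difference 0.61 ± 0.11, adjusted p = 0.00984). Mthfd2, which acts after it, went from 37.4 ± 1.78 to 51.1 ± 3.14 in motor neurons and from 39.6 ± 9.57 to 103 ± 25.3 in astrocytes. Atf4 went from 124 ± 6.93 to 177 ± 15.0 in motor neurons and from 151 ± 19.2 to 141 ± 19.6 in astrocytes, with a difference of 0.60 ± 0.15 (adjusted p = 0.0354). Atf3, Nupr1, Chac1 and Mthfd2 were the 4 members that rose in both. Nupr1, a small stress-induced nuclear protein, was at 5.80, 9.005, 6.02 and 7.14 in motor neuron controls and 20.7, 26.9, 35.4 and 25.4 in G37R, and in astrocytes at 7.91 to 11.5 (median 10.2) and 33.3, 29.7, 15.6 and 29.6. Its effects of 1.81 ± 0.17 and 1.29 ± 0.18 did not differ by the test (0.52 ± 0.26, adjusted p = 0.267).

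ATF4 binds a composite element, the C/EBP-ATF response element with the letters TTGCATCA, and 300-base windows from 250 bases before to 50 bases after gene starts (RefSeq, GRCm38.p6) were searched for it on both strands. Of the 33 ATF4 list members, 26 had windows, and 5 of these genes held the letters: Aars, Atf3, Chac1, Nupr1 and Vldlr, all of which rose in motor neurons. They were in 5 of 30 windows (16.7%), against 0.895% of all 32851 windows and 0.578% of the windows of genes tested in both. The list was drawn up from known ATF4 targets, so this is a description. The 250 bases before the start are shown for Atf3, Chac1 and Nupr1, which rose in both cell types, and for Vldlr, whose rise of 0.35 ± 0.07 in motor neurons differed from its effect of -0.23 ± 0.12 in astrocytes (difference 0.58 ± 0.14, adjusted p = 0.0348). Each runs 5′ to 3′ on the strand of the gene, with the element in capitals, at chr1:191183334-191183583 (minus strand), chr2:119350992-119351241 (plus), chr7:126625471-126625720 (minus) and chr19:27216770-27217019 (plus).
Atf3: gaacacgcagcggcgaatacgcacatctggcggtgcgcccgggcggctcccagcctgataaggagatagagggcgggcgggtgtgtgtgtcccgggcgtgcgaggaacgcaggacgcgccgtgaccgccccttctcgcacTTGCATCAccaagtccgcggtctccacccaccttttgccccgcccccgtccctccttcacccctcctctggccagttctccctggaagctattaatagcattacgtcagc
Chac1: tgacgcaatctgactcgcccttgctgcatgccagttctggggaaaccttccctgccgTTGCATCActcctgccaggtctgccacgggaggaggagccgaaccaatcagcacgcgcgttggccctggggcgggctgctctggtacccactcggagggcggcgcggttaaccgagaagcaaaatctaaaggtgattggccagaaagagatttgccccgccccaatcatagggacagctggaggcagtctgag
Nupr1: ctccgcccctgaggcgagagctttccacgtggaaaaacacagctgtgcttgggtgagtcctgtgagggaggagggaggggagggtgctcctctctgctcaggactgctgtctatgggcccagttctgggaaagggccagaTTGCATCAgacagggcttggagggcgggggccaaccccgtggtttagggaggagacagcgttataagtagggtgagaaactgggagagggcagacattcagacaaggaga
Vldlr: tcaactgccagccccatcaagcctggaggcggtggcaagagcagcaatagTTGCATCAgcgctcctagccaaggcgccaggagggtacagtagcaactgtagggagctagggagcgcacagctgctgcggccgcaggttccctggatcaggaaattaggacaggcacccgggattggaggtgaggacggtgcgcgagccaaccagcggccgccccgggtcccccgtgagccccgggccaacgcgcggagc
The element starts 110 bases before the start of transcription in Atf3 and Nupr1, 193 before it in Chac1 and 200 before it in Vldlr. In Aars, whose bases are not shown, it starts 112 bases before the start. In the remaining windows of the list these letters were not found.

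Of the 109 motor neuron-specific rises, 105 had a lower control level in motor neurons than in whole spinal cord, with a median log2 ratio of -1.57 where all genes had 0.01, and 102 had a higher control level in astrocytes than in motor neurons. Over all genes tested, 5659 of 11380 had the former and 49.5% the latter. The motor neuron control level is also part of the effect that chose these genes, so level and choice are not independent. Gpd1, a cytosolic glycerol phosphate dehydrogenase of glia, was at 11.3, 12.1, 10.5 and 12.5 in motor neuron controls and at 21.0, 17.5, 32.3 and 36.1 in G37R. Its astrocyte controls were at 367 to 429 (median 399) and G37R at 325, 359.6, 355 and 337. The effects were 1.08 ± 0.22 and -0.20 ± 0.08, and the difference was 1.29 ± 0.20 (adjusted p = 0.00389).

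Padi2, an enzyme that turns arginine of proteins into citrulline, was at 6.94, 4.38, 5.55 and 6.15 in motor neuron controls and 9.29, 9.87, 16.3 and 15.6 in G37R. In astrocytes it was at 67.4 to 119 (median 103) and 71.0, 86.3, 49.8 and 111, so the groups overlapped. Its difference was 1.35 ± 0.31 (adjusted p = 0.0286, and up to 0.0755 with 1 of 7 libraries left out). Clic4, a chloride channel family protein, rose from 8.41 to 12.3 in controls to 16.4 to 25.7 in motor neuron G37R, against 108 to 117 and 98.8 to 105 in astrocytes, and its difference was 1.04 ± 0.15. Serpinb1a, an inhibitor of leukocyte proteases (difference 1.20 ± 0.22), Arhgef2, a microtubule-bound guanine nucleotide exchange factor (1.07 ± 0.21), Prex1, an activator of Rac (1.03 ± 0.21), and Rftn1, a lipid raft protein (1.02 ± 0.18), had the same pattern. In all of these genes, as in Phgdh, motor neuron G37R libraries 3 and 4 were the highest.

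These rises went with the glial sums of the same libraries. Without motor neuron G37R libraries 3 and 4 the difference was called for 26 genes in place of 322, all of which were among the 322, and the motor neuron-specific group held 5 genes in place of 148. All 148 kept the sign of the difference, and its median size went from 0.60 to 0.49. The astrocyte-specific group went from 78 genes to 17, and its 78 genes kept the sign, with median sizes of 0.66 and 0.67. Both groups were chosen for their difference in largely the same libraries, so kept signs are no test of stability. Fewer G37R libraries also make a call harder to reach, and the causes of the lost calls were not tested. Of the rises named above, Gpd1 (0.89, adjusted p = 0.00437), Clic4 (0.81, adjusted p = 0.0195) and Psat1 remained called for the difference.

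Lists of myelin, resting astrocyte and oligodendrocyte precursor genes had median effects above 0 in motor neurons and below 0 in astrocytes. Without astrocyte G37R library 4 the astrocyte medians were -0.12, 0.05 and 0.01 in that order, so only that of myelin stayed below 0. Of 24 myelin genes 3 rose in motor neurons, where 6.78% of all genes rose, and none was called in astrocytes, with medians of 0.49 and -0.17. Over all genes tested, the difference was above 0 for 6213 of 11380 and called for 2.83%. In the myelin list it was above 0 for all 24 and called for 5, among them Cnp, a myelin phosphodiesterase (1.06 ± 0.25), and Aspa, which cleaves N-acetylaspartate (1.04 ± 0.25). Sox10, the oligodendrocyte lineage factor, was among them too (1.24 ± 0.30). Without motor neuron G37R libraries 3 and 4 the medians were 0.16 and -0.17 and the difference was called for none of the 24. Of 22 genes of resting astrocytes 1 rose in motor neurons and none in astrocytes, with medians of 0.41 and -0.03. These counts were no higher than the shares of all genes that rose, 6.78% and 1.25%. The difference was called for Acsbg1, an acyl-CoA synthetase (1.22 ± 0.28, adjusted p = 0.0257, and up to 0.0644 without 1 of 4 libraries). With those 2 G37R libraries left out, the motor neuron median was 0.14 and Acsbg1 was at 0.65 (adjusted p = 0.0728), with no difference called in the list. The 5 precursor genes had medians of 0.62 and -0.15 with 2 called differences, and 0.21 in motor neurons with none called under the same leave-out. Gfap, the filament protein of astrocytes, was at 47.1, 43.8, 38.4 and 68.5 in motor neuron controls and 97.8, 103, 209 and 217 in G37R, a rise of 1.58 ± 0.35. In astrocytes it was at 4680.1 to 7024 (median 5395) in controls and 7536, 7727, 6360.2 and 9470.5 in G37R, 0.46 ± 0.15 with an adjusted p of 0.137. The difference of 1.12 ± 0.32 missed the threshold (adjusted p = 0.061).

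Of the 39 motor neuron-specific falls, 4 had a lower control level in motor neurons than in whole spinal cord, with a median log2 ratio of 1.60, and 10 had a higher control level in astrocytes than in motor neurons. Over all genes tested, 5659 of 11380 had the former and 49.5% the latter. Here too the control level is part of the effect that chose the genes. Prss12, which encodes neurotrypsin, a synaptic protease, was at 51.8, 56.9, 51.2 and 53.5 in controls and 38.2, 37.2, 35.8 and 34.1 in G37R motor neurons. It was at most 2.23 in the astrocyte libraries. The effects were -0.54 ± 0.05 and 0.16 ± 0.08, and the difference of -0.70 ± 0.10 (adjusted p = 0.00239) was still called without motor neuron G37R libraries 3 and 4 (-0.65, adjusted p = 0.0303). Itm2a, a membrane protein, fell from 74.9 to 85.6 in controls to 37.2 to 54.8 in G37R (-0.73 ± 0.10), against 1.85 to 3.38 and 2.72 to 4.17 in astrocytes, and its difference of -0.98 ± 0.17 became -0.84 (adjusted p = 0.0728) without those libraries.

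Ppp1r1b encodes DARPP-32, a phosphatase inhibitor controlled by cyclic AMP. It was at 32.7, 29.3, 23.6 and 23.5 in motor neuron controls and 17.8, 13.97, 12.4 and 14.6 in G37R, and in astrocytes at 338 to 414 (median 400.4) and 459.5, 468, 659.7 and 383. The fall of 0.85 ± 0.13 in motor neurons had no overlap, the astrocyte groups overlapped, and the difference was -1.15 ± 0.19 (adjusted p = 0.00557), or -1.04 (adjusted p = 0.0705) without motor neuron G37R libraries 3 and 4. Cd59a, which protects cells from the complement membrane attack complex, fell from the range 105 to 129 to the range 82.3 to 90.8 in motor neurons (-0.43 ± 0.07), while its astrocyte effect was 0.19 ± 0.11 (difference -0.63 ± 0.14, adjusted p = 0.0205, up to 0.0567 without 1 of 3 libraries and 0.171 without motor neuron G37R libraries 3 and 4). Of 20 voltage-gated channel genes 5 fell in motor neurons, where 6.08% of all genes fell, and none was called in astrocytes. The medians were -0.19 and 0.04, and without motor neuron G37R libraries 3 and 4 none was called. Ache, acetylcholinesterase, had effects of -0.19 ± 0.07 and 0.22 ± 0.07, neither called, and a called difference of -0.41 ± 0.10 (adjusted p = 0.0329, up to 0.087 without 1 of 7 libraries and 0.178 without those 2). The difference also ran towards astrocytes for Mt3, a brain metallothionein (-0.75 ± 0.19, adjusted p up to 0.0979 without 1 of 13 libraries), but not under quantile normalization, where it was 0.15.

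Cytosolic ribosomal protein genes had opposite medians in the 2 cell types. All 48 were tested, 22 fell and none rose in motor neurons, where 6.08% of all genes fell, and none was called in astrocytes. The medians were -0.24 and 0.21, and the difference was below 0 for 48 of 48, although called for Rps16 alone (-0.63 ± 0.16, adjusted p = 0.0444, and up to 0.108 without 1 of 15 libraries). Of all genes tested, 6213 of 11380 had a difference above 0. The summed level of the 48 was 14326, 14119, 13607 and 13996 in motor neuron controls and 12854, 11476, 11743 and 11128 in G37R, with no overlap. In astrocytes the controls summed to 11220.0 to 15645 and G37R to 18225, 14074, 17862 and 10116, so the groups overlapped, and G37R library 4 was below all others. That library also stood apart over all genes, with a median absolute log2 deviation of 0.235 from the other libraries of its group, against 0.110 to 0.159 for the other 3 astrocyte G37R libraries. Without it the difference was called for 41 of the 48, and for 1592 genes in all. In motor neurons 8 of the 48 fell when G37R libraries 3 and 4 were left out. The signs of both medians held under median-ratio scaling and quantile normalization. The mRNA in these data was caught through a tagged ribosomal protein, and whether that bears on ribosomal protein transcripts was not tested.

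Cholesterol synthesis was a group in which the medians were alike. Of 23 genes 15 fell in motor neurons, where 6.08% of all genes fell and 6.78% rose. None was called in astrocytes, but the medians were -0.27 and -0.28. Insig1, the sterol-regulated anchor of SREBP, had effects of -0.47 and -0.70, and Stard4, a cholesterol carrier, of -0.63 and -0.76, called in motor neurons. The difference was called for Pmvk, phosphomevalonate kinase, which was at 166, 185, 174 and 180.4 in motor neuron controls and 142, 142, 144 and 141 in G37R and was not called in astrocytes (difference -0.54 ± 0.10, adjusted p = 0.00884). With motor neuron G37R libraries 3 and 4 left out, 9 of the 23 fell there and Pmvk lost its call at the same difference (adjusted p = 0.0728). Genes of oxidative phosphorylation had medians of -0.11 and 0.10 over 44 members, with 6 falls in motor neurons, 1 without motor neuron G37R libraries 3 and 4, but of -0.02 in both cell types under quantile normalization. Of 22 genes of fatty acid oxidation 3 rose in motor neurons, and the difference was called for Hadhb (0.43 ± 0.09) and Hadh (0.53 ± 0.14), both of the beta-oxidation spiral. Hadh lost the call without 1 of 14 libraries (adjusted p up to 0.115). With motor neuron G37R libraries 3 and 4 left out, 1 of the 22 rose, the motor neuron median went from 0.14 to 0.01, and neither Hadhb (0.33, adjusted p = 0.141) nor Hadh (0.27, adjusted p = 0.286) was called.

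**Figure D4:**
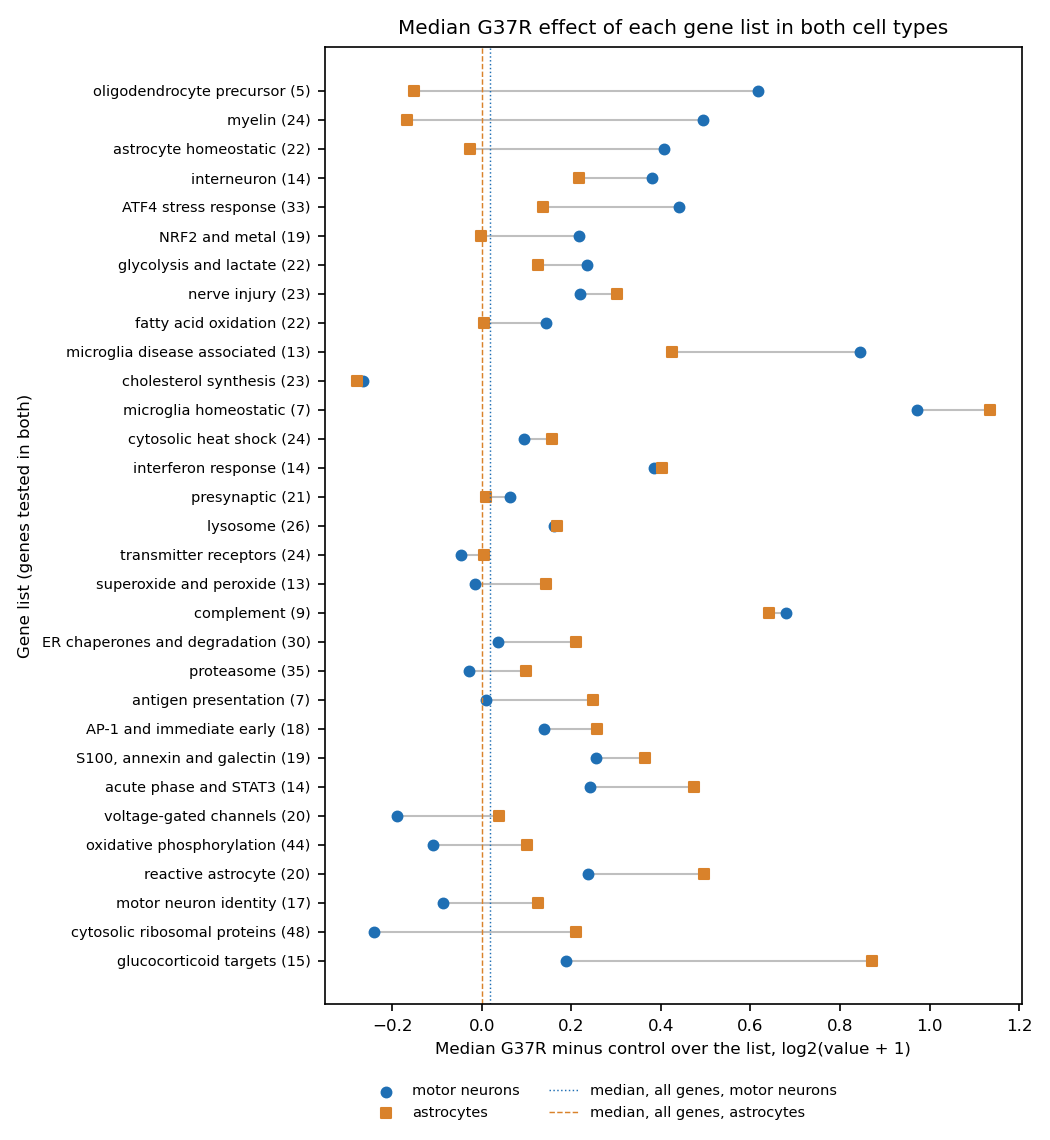
Median G37R effect in motor neurons (circles) and astrocytes (squares) for each gene list with at least 5 genes tested in both, in log2(level + 1), ordered by the median difference, with the medians of all genes as vertical lines. Myelin genes lie at 0.49 and -0.17, cytosolic ribosomal protein genes at -0.24 and 0.21, and glucocorticoid targets at 0.19 and 0.87.

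The largest difference towards astrocytes among the genes named here was that of Hspb1, which encodes the small heat shock protein HSP27. It was at 30.2 to 48.2 in astrocyte controls, with a median of 34.6, and at 280.1, 194, 166 and 343 in G37R, a rise of 2.67 ± 0.19 (adjusted p = 9.91e-05). Motor neurons had 268, 229.7, 257 and 301 in controls and 291, 276, 276 and 274 in G37R, an effect of 0.09 ± 0.07. G37R astrocytes thus had levels in the range of 166 to 343 beside 229.7 to 301 in control motor neurons, across tables that were scaled separately. The difference was -2.58 ± 0.23 (adjusted p = 1.29e-05) and -2.56 (adjusted p = 0.000856) without motor neuron G37R libraries 3 and 4. Hspb2, a related small heat shock protein, went from the range 2.85 to 3.43 to the range 4.33 to 5.25 in astrocytes (0.46 ± 0.08) and from the range 3.44 to 5.06 to the range 2.66 to 3.45 in motor neurons (-0.35 ± 0.10, not called). Its difference was -0.81 ± 0.13 (adjusted p = 0.00389).

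Among the astrocyte-specific rises were Maff, Cebpd, Cebpb and Junb, transcription factors of the immediate early and acute phase responses. Maff, a small partner of CNC factors, was at 1.84 to 2.86 in astrocyte controls (median 2.29) and 7.15, 7.27, 8.46 and 10.2 in G37R. It was at 7.52, 9.19, 7.53 and 7.46 in motor neuron controls and 10.3, 8.61, 8.28 and 6.88 in G37R, where the groups overlapped. The difference was -1.41 ± 0.16 (adjusted p = 0.000297). Cebpd, an inflammation-induced factor of the C/EBP family, went from 5.28 to 8.61 (median 7.31) to 19.1, 18.4, 29.2 and 30.2 in astrocytes, a rise of 1.65 ± 0.17. Its motor neuron levels were 1.55 to 1.91 and 1.99 to 2.96, an effect of 0.29 ± 0.10 that was not called (adjusted p = 0.064), and the difference was -1.36 ± 0.22 (adjusted p = 0.00389). Cebpb (1.46 ± 0.17 in astrocytes) and Junb (1.32 ± 0.12) had differences of -1.35 ± 0.23 and -1.09 ± 0.16. Of 18 AP-1 and immediate early genes 6 rose in astrocytes and 2 in motor neurons (0 without motor neuron G37R libraries 3 and 4), where 1.25% and 6.78% of all genes rose. Ier5 differed in the other direction (0.73 ± 0.15), but its difference was not called without those libraries. The AP-1 letters TGANTCA were in 10% of 50 windows of the astrocyte-specific rises, against 7.81% of all windows and 4.7% of those of genes tested in both.

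Of 15 tested glucocorticoid targets, 7 rose in astrocytes, where 1.25% of all genes rose, and none was called in motor neurons. The medians were 0.87 and 0.19, and all 15 were above 0 in astrocytes. Without astrocyte G37R library 4, 4 rose there and the median was 0.74. Fkbp5, a chaperone of the glucocorticoid receptor that the receptor itself induces, was at 4.61 to 16.7 in astrocyte controls (median 8.78) and at 19.0, 54.5, 70.4 and 84.5 in G37R. In motor neurons it was at 44.4, 44.2, 43.7 and 44.4 and at 43.6, 41.5, 38.7 and 40.5. The rise of 2.46 ± 0.45 in astrocytes had no overlap but a wide spread, with G37R library 1 close to the highest control. The difference was -2.56 ± 0.52 (adjusted p = 0.0209, and 0.0517 without motor neuron G37R library 3). It was -2.51 (adjusted p = 0.143) with motor neuron G37R libraries 3 and 4 both left out, when no member of the list was called for the difference. Of the 15 it alone was called for the difference. Nr3c1, the glucocorticoid receptor, chosen after its values were seen, fell in astrocytes from 19.0 ± 2.77 to 12.6 ± 1.83 (-0.56 ± 0.12) and was at 5.22 ± 0.32 and 5.88 ± 0.29 in motor neurons, with a difference of 0.70 ± 0.15 (adjusted p = 0.0177). That difference was not called without motor neuron G37R libraries 3 and 4.

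S100 proteins, annexins and galectins, small calcium- or sugar-binding proteins of reactive cells, rose for 9 of 19 in astrocytes and 6 of 19 in motor neurons, 4 of them shared. Over all genes 1.25% and 6.78% rose and 0.448% were shared. The difference was called for 4 of the 19, all towards astrocytes, where it was called for 2.83% of all genes, 0.94% towards astrocytes. In motor neurons 3 rose, and the difference was called for 2, with G37R libraries 3 and 4 left out. S100a4 went from 34.6 to 51.2 in astrocyte controls (median 43.2) to 210.3, 146, 99.7 and 184 in G37R (1.86 ± 0.18), with 2.49 to 5.15 and 4.28 to 7.22 in motor neurons and a difference of -1.44 ± 0.29. Anxa2 went from the range 45.6 to 58.0 to the range 78.8 to 111 in astrocytes (0.89 ± 0.10) and lay at 294 to 337 and 289 to 323 in motor neurons (difference -0.91 ± 0.13). Lgals1, at 147 to 192 and 235 to 341 in astrocytes, was at 1380.3 to 1566 and 1282 to 1545 in motor neurons (difference -0.88 ± 0.14). S100a10, the partner of annexin A2, had a difference of -0.76 ± 0.14. Hspb1, Maff, Anxa2 and Lgals1 were thus transcripts with higher control levels in motor neurons than in astrocytes. Over the 43 astrocyte-specific rises, 14 (32.6%) had a higher control level in astrocytes, against 49.5% of all genes. The astrocyte control level is part of the effect that chose these genes.

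The other astrocyte-specific rises named by rule were Tm4sf1, a tetraspanin-like surface protein (difference -1.30 ± 0.22), and Rasl11a, a small GTPase (-1.20 ± 0.30, lost without 1 of 11 libraries, adjusted p up to 0.0867). Of 20 reactive astrocyte genes 10 rose in astrocytes and 8 in motor neurons, where 1.25% and 6.78% of all genes rose. The medians were 0.50 and 0.24, 5 genes were shared, and 4 differed, all towards astrocytes. Of all genes tested, 0.448% were shared and 2.83% differed. With motor neuron G37R libraries 3 and 4 left out, 4 rose in motor neurons, 3 were shared and 2 differed. Olfml3, a microglial secreted protein, rose by 1.10 ± 0.11 in astrocytes and had a motor neuron effect of 0.26 ± 0.12 (difference -0.84 ± 0.16). H2-T23, a nonclassical MHC molecule, rose by 0.50 ± 0.09 in astrocytes (difference -0.59 ± 0.13, adjusted p up to 0.0714 without 1 of 3 libraries). Without motor neuron G37R libraries 3 and 4, the differences of Hspb1, Hspb2, Maff, Cebpd, Junb, Anxa2, S100a4 and Tm4sf1 were still called, and those of Fkbp5, Cebpb, Lgals1, Rasl11a, Olfml3 and H2-T23 were not.

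Astrocyte-specific falls included factors of glial precursors. Olig2, a transcription factor of the oligodendrocyte lineage and of some spinal astrocytes, was at 42.1 to 63.4 in astrocyte controls (median 51.5) and 39.1, 32.2, 23.1 and 22.8 in G37R, a fall of 0.82 ± 0.16 without overlap. In motor neurons it was at 2.93, 2.52, 2.17 and 2.67 and at 3.48, 2.79, 6.92 and 6.28, an effect of 0.65 ± 0.24 that was not called, with libraries 3 and 4 highest. The difference was 1.48 ± 0.28 (adjusted p = 0.0109) and 1.04 (adjusted p = 0.0855) without them. Sox2, a factor of neural stem cells and astrocytes, fell from the range 154 to 197 to the range 95.6 to 157, overlapping in G37R library 1 (-0.58 ± 0.13). Its difference of 0.99 ± 0.25 (adjusted p = 0.038) was lost without 1 of 9 libraries, with adjusted p up to 0.0991. Wnt7a, a secreted Wnt ligand, fell by 0.79 ± 0.17 (difference 0.99 ± 0.22, adjusted p = 0.0214, and 0.0544 without motor neuron G37R library 4). With motor neuron G37R libraries 3 and 4 left out, the differences of Sox2 and Wnt7a were not called (adjusted p = 0.2865 and 0.0904).

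Plekho2, a pleckstrin homology domain protein, had the smallest adjusted p for the difference among these named falls. It was at 92.0 to 114 in astrocyte controls (median 104) and 72.7, 56.8, 42.9 and 52.5 in G37R (-0.89 ± 0.12), and at 2.25 to 2.87 and 2.75 to 3.66 in motor neurons (0.24 ± 0.09, not called). The difference was 1.12 ± 0.16 (adjusted p = 0.00217) and 1.05 (adjusted p = 0.0226) without motor neuron G37R libraries 3 and 4. Gatm, the first enzyme of creatine synthesis, went from the range 274 to 364 to the range 192 to 221 in astrocytes (-0.58 ± 0.09, difference 0.94 ± 0.17), and Cdc42ep1, an effector of the GTPase Cdc42, fell by 0.78 ± 0.17 (difference 1.44 ± 0.29). Both lost the call for the difference without motor neuron G37R libraries 3 and 4, Gatm at 0.67 (adjusted p = 0.0517) and Cdc42ep1 at 1.11 (adjusted p = 0.149).

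The 5 opposite genes passed the test in both cell types with opposite signs. Tinf2, a subunit of the telomere-capping shelterin complex, was at 25.3, 25.8, 23.8 and 24.8 in motor neuron controls and 22.2, 22.3, 20.4 and 20.7 in G37R, and at 21.3 to 23.2 in astrocyte controls (median 21.9) and 30.9, 39.3, 47.2 and 42.2 in G37R. It fell by 0.21 ± 0.05 and rose by 0.81 ± 0.10 without overlap in either, and the difference was -1.02 ± 0.12 (adjusted p = 0.000297). Gpx1, a peroxide-reducing selenoenzyme, was at 346, 420.0, 385 and 380.2 in motor neuron controls and 339.8, 347, 317 and 294 in G37R, where the groups overlapped (-0.24 ± 0.07, adjusted p = 0.0495). In astrocytes it was at 222 to 303 (median 259.9) and 524, 363, 419 and 366 (0.67 ± 0.13), and the difference was -0.91 ± 0.16. Cela1, a chymotrypsin-like elastase, was at 68.0, 75.5, 70.6 and 79.5 against 65.4, 54.2, 63.5 and 53.6 in motor neurons and at 16.6 to 34.8 (median 21.2) against 49.6, 40.6, 41.1 and 37.3 in astrocytes (difference -1.18 ± 0.21). Without motor neuron G37R libraries 3 and 4 the differences of Gpx1 and Cela1 were not called (adjusted p = 0.0818 and 0.0728).

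The other 2 rose in motor neurons and fell in astrocytes. Fam123a, also known as Amer2 and a regulator of Wnt signalling, was at 2.79, 2.23, 2.29 and 2.23 in motor neuron controls and 4.35, 4.10, 4.30 and 3.12 in G37R, and at 28.9 to 39.7 (median 36.6) and 27.2, 21.8, 14.9 and 19.4 in astrocytes. Neither pair of groups overlapped, and the difference was 1.33 ± 0.19 (adjusted p = 0.00188). It was as large without motor neuron G37R libraries 3 and 4 (1.42, adjusted p = 0.00766). Fam59b was at 1.505, 0.973, 1.08 and 1.45 against 1.78, 2.50, 3.64 and 3.31 in motor neurons, and at 32.1 to 44.1 (median 37.9) against 30.1, 29.5, 24.3 and 29.3 in astrocytes (difference 1.14 ± 0.18). Its astrocyte effect of -0.40 ± 0.09 was close to the threshold (adjusted p = 0.0484). Tinf2 alone of the 5 was called in both cell types without motor neuron G37R libraries 3 and 4.

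Some genes were above the minimum in 1 cell type only and could not be compared. Over its whole table, 6.49% of genes rose and 6.37% fell in motor neurons (12.9% called), and 1.52% rose and 0.818% fell in astrocytes (2.34% called). Among 923 genes tested in motor neurons alone 27 rose and 92 fell. Sprr1a, a cornified envelope protein induced in cut axons, rose by 4.59, Fgf21, a stress-induced hormone, by 2.90, and Adm2, a peptide of the calcitonin family, by 1.60. Among 1086 in astrocytes 48 rose and 31 fell. Those that rose included Cd68, a lysosomal protein of phagocytes, by 1.25 and Isg15, an interferon-induced modifier, by 1.02. Mouse Sod1 was at 1290.3 to 1540.1 in the motor neuron libraries and 895 to 1370.4 in the astrocyte libraries, with effects of -0.13 ± 0.05 and 0.11 ± 0.12, and reads of the human transgene were not analysed here.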

How the data were processed

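RNA bound to EGFP-tagged RPL10A was immunoprecipitated from spinal cord with antibodies to GFP, and mRNA libraries were sequenced as 50-base single reads, per the labels' protocols. TopHat2 2.0.8b, Cufflinks and Cuffdiff with the mouse build mm9 are named, without roles, in the submitters' processing notes. The tables of purified cells hold 1 value per gene and library that the authors called FPKM, scaled separately for each cell type. Their sums are far above what FPKM can give, so these deposited values were treated as a signal on an unstated scale. The 11-month whole spinal cord table, deposited in FPKM, was used only to find that scale: levels in the spinal cord table of 8 months exceeded those at 11 months by a median factor of 16773 over 13597 genes, and all signal values were divided by it to give FPKM-equivalents. That the same factor holds for the purified cell tables is an assumption, and it fixes what the pseudocount and the minimum mean stand for. The tables were expected to hold FPKM when the tests were designed. Reads per library are not known, so no counting interval is given. Within a table, relative depth differed by up to 1.36-fold between libraries. Blank lines, 2 a table, were not used, and 248 symbols were listed more than once.

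Levels were transformed as log2(level + 1), genes with a mean of at least 1 were kept, and limma 3.58.1 in R 4.3.3 was fitted with a mean-variance trend and robust moderation. Effects were fitted within each table (12303 genes in motor neurons, 12466 in astrocytes) and their difference over the 18 libraries and 11380 genes kept in both, with Benjamini-Hochberg adjustment over all genes tested. The scripts were tested on simulated data. Genes were called shared or opposite when both effects passed 0.05, and specific to a cell type when its effect and the difference passed and the other effect did not. Named by rule were the 8 shared rises and 5 shared falls with the largest smaller-of-both effects, the 8 rises and 6 falls specific to each cell type with the largest difference, all opposite genes, from each list up to 3 members with a called difference and 2 shared members, and Sod1 and Gfap. Other list members given as examples, Emd, Nr3c1 and the genes tested in 1 cell type only were chosen after their values were seen. A gene that the rule names is not reported here. The members and lists were chosen with earlier results of these data known. Same-numbered libraries of control and G37R did not deviate together and were not treated as pairs. Sequences are from RefSeq, and 8117 of 11355 symbols tested in both had promoter windows. Alternatives covered the pseudocount, the minimum, scaling, limma's settings, the pairing and each library left out. Those without motor neuron G37R libraries 3 and 4 and without near-zero entries were chosen after seeing the data.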

Additional observations from a re-analysis of the deposited data

Results flagged for a closer look

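The test of the difference between the 2 cell types was passed by 53 of the genes named by rule, of which 52 are listed here, with the motor neuron effect minus the astrocyte effect on the log2(level + 1) scale given in parentheses. A called difference was itself part of the rule for genes specific to a cell type, opposite genes and list members named for a difference. The 53 are therefore a listing and not a result of their own. The motor neuron effect was the more positive for Atf3 (1.83), Olig2 (1.48), Cdc42ep1 (1.44), Padi2 (1.35), Fam123a (1.33), Gpd1 (1.29), Sox10 (1.24), Acsbg1 (1.22), Serpinb1a (1.20), Phgdh (1.16), Fam59b (1.14), Plekho2 (1.12), Arhgef2 (1.07), Cnp (1.06), Aspa (1.04), Clic4 (1.04), Prex1 (1.03), Rftn1 (1.02), Wnt7a (0.99), Sox2 (0.99), Gatm (0.94), Hadh (0.53) and Hadhb (0.43). The astrocyte effect was the more positive for Hspb1 (-2.58), Fkbp5 (-2.56), S100a4 (-1.44), Maff (-1.41), Cebpd (-1.36), Cebpb (-1.35), Tm4sf1 (-1.30), Serpina3n (-1.21), Rasl11a (-1.20), Cela1 (-1.18), Ppp1r1b (-1.15), Tagln (-1.13), Junb (-1.09), Tinf2 (-1.02), 1700020I14Rik (-0.99), Itm2a (-0.98), Anxa2 (-0.91), Gpx1 (-0.91), Lgals1 (-0.88), Olfml3 (-0.84), Hspb2 (-0.81), Mt3 (-0.75), Prss12 (-0.70), Ropn1l (-0.70), Cd59a (-0.63), Rps16 (-0.63), H2-T23 (-0.59), Pmvk (-0.54) and Ache (-0.41). Of the 53, 34 kept the call whichever single library was left out, and 16 kept it without motor neuron G37R libraries 3 and 4.

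In 10 of the 300 groups of libraries checked over the named genes, 1 library stood far from the others by Dixon's test, which chance gives for about 1 group in 20. In motor neuron controls these were library 1 for Fam123a (2.79) and library 2 for Maff (9.19) and Timp1 (1.21). In motor neuron G37R they were library 4 for Fam181a (0.527), library 1 for Hspb1 (291) and library 2 for Ropn1l (1.91). In astrocyte controls they were library 1 for Lgals1 (192) and library 2 for Ppp1r1b (338) and Vim (202), and in astrocyte G37R library 3 for Fam59b (24.3). All are levels in FPKM-equivalents.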

How the results depend on the processing

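With all libraries, 322 genes were called for the difference. All 322 kept its sign under the alternatives that tested them, except 1 under quantile normalization. They were chosen for a called difference in largely the same libraries, so kept signs are no test of stability. With a pseudocount of 0.1, 330 genes were called, 306 of them among the 322. Counts moved more. With a minimum mean of 5, 158 genes were called (99 more positive in motor neurons, 59 in astrocytes), with 23 shared, 3 opposite, 82 motor neuron-specific and 45 astrocyte-specific. With no minimum, 176 were more positive in astrocytes, 1026 were called in motor neurons and 3 were opposite. Without trend and robust moderation 3 were opposite. With sample weights 1094 were called (651 and 443), 522 in astrocytes, with 14 opposite, 379 motor neuron-specific and 220 astrocyte-specific. With the replicate block 47 were called (22 and 25), 810 in motor neurons and 49 in astrocytes, with 7 shared, 0 opposite, 16 motor neuron-specific and 16 astrocyte-specific, and same-numbered libraries did not correlate above 0.137. With effects from the 4-group fit 489 were called in motor neurons and 708 in astrocytes, and 145 were astrocyte-specific. With the spread estimated separately, 541 were called (352 and 189) and 233 were motor neuron-specific. Without motor neuron G37R libraries 3 and 4, chosen after seeing the data, 26 were called (12 and 14) and 294 of the whole table in motor neurons, with 23 shared, 1 opposite, 5 motor neuron-specific and 17 astrocyte-specific. Without near-zero and small RNA entries, also added later, 8 were opposite.

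Leaving out 1 library gave 108 (motor neuron G37R 3) to 1592 (astrocyte G37R 4) called differences, 59 to 920 more positive in motor neurons and 47 to 672 in astrocytes. The calls ranged from 273 to 2135 in motor neurons and 128 to 330 in astrocytes, the shared genes from 16 to 66, the opposite from 1 to 13, the motor neuron-specific from 24 to 527 and the astrocyte-specific from 30 to 138. Called differences were under 215 without motor neuron controls 2 (112), 3 (120) or 4 (181), motor neuron G37R 4 (126), astrocyte controls 1 (182), 2 (171) or 3 (210), or astrocyte G37R 3 (160), and rose to 491 without astrocyte control 5. Quantile normalization turned the difference of Mt3 to 0.15 and of Sod1 to 0.0183. The cause of these changes was not tested. Depth is unknown, so it is not known how it limits genes with a mean near 1.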

Other observations

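Some gene lists had few or no called differences between the cell types. Over all genes tested in both, 6.78% rose and 6.08% fell in motor neurons, and 1.25% rose and 0.624% fell in astrocytes. Of 14 interferon-induced genes 4 rose in motor neurons and 4 in astrocytes, with medians of 0.39 and 0.40, but none was called in both: Irgm1, Ifit2, Irf9 and Stat2 rose in motor neurons and Bst2, Ifi35, Ifitm3 and Psmb8 in astrocytes. Without motor neuron G37R libraries 3 and 4 none of the 14 rose in motor neurons and the median there was 0.13. Of 30 chaperone and degradation genes of the endoplasmic reticulum none was called in motor neurons and 1, Herpud1, rose in astrocytes. Of 24 cytosolic heat shock genes 3 rose and 1 fell in motor neurons, the latter being Cryab (-0.49), and 3 rose in astrocytes, Hspb1, Hspb2 and Hspb6 (0.82). None of the 24 rose in motor neurons without those libraries. Of 17 motor neuron identity genes 2 rose and 1, Chodl (-0.46), fell in motor neurons, and 1 rose and none fell without those libraries.

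Among genes above the minimum in motor neurons only, Ngfr, the p75 neurotrophin receptor, rose by 0.64, and Cacna1d, a calcium channel subunit, and Htr2a, a serotonin receptor, fell by 0.74 and 0.62. Among those above it in astrocytes only, Fcgr2b, an antibody receptor of phagocytes, rose by 1.13, and the transcription factors Prox1 and Nkx2-2 fell by 0.66 and 0.59. These genes were chosen after their values were seen, and no difference between the cell types was tested for them.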
